A study of Mus musculus with 4 samples.

Results

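The 38 genes described here are mucosal genes of the stomach and intestine, the organs that adjoin the pancreas when it is dissected. They were looked up by symbol in single-cell RNA sequencing libraries of fetal mouse pancreas and split into 20 gastric and 18 intestinal genes, out of 22028 annotated protein-coding genes. The genes were chosen by tissue, but with earlier listing values of these libraries in view: Muc5ac and Tff1 were known to be missing from the E13.5 KO list, and Tff2 and Cym to be in it. The listing counts below are therefore descriptions and support nothing on their own. The data used here are gene lists, in which a gene is either listed or not. Levels, cells and sequencing depth were not analysed here, so fewer cells of a type and less RNA per cell cannot be told apart, and a gene that was not listed may have been missed.

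The series has 4 libraries, 1 for each combination of embryonic age and genotype, made from EpCAM-labelled cells purified by flow cytometry on a C57BL/6 background. EpCAM is a surface protein of epithelia in general, so the sort does not separate pancreatic from gastric or intestinal epithelium. All 4 groups carried floxed Setd2 alleles (Setd2 f/f), and the KO groups of both ages carried Pdxcre in addition (PdxcreSetd2 f/f). Setd2 encodes the enzyme that trimethylates lysine 36 of histone H3, and it was listed in each complete list, which does not check the genotype labels. The WT groups had Setd2 f/f without Cre. As background, Pdx1, the gene after which such drivers are named, is active in the pancreatic buds and also in the distal stomach and the duodenum. The labels do not give the number of embryos or a replicate, so there was 1 library per group, no replicate check and no test. The E15.5 WT list ended after 167 complete entries, and 0 of the 38 genes fall inside that stretch, so the results rest on the 3 complete lists, those of the E13.5 WT library and of the KO libraries of both ages. Below, a gene in 1 list alone is alone among these 3.

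The mucosa of the stomach is covered by a gel of secreted mucins, held together with small trefoil peptides, and its glands secrete pepsinogens, acid and intrinsic factor. The intestinal mucosa carries a brush border of microvilli with disaccharidases, phosphatases and membrane mucins, and its identity is set by the caudal homeobox factors Cdx1 and Cdx2. Stomach, intestine and pancreas all arise from the same endoderm, and some of these genes are known in ducts, liver, airway or salivary gland as well.

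Markers of the labelled tissue were looked up, and 19 of 19 markers of pancreatic epithelium, among them Pdx1, Ptf1a and Neurog3, were in each complete list. The lists held 25463 to 26341 genes, and the E13.5 KO list was the longest. Markers of other tissues were listed as well despite the sort: each list held 7 of 7 liver markers, and of 10 mesenchyme markers both E13.5 lists held 10 and the E15.5 KO list 9. Of 6 markers of airway and oesophagus, E13.5 WT held 5, E13.5 KO 4 and E15.5 KO 3. The lists also held 75.9% to 77.9% of all annotated coding genes, so these marker counts do not tell tissues apart. A listing has no level, so it does not give the number of such cells. Their part in the results below was not tested.

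The sequence before the transcription starts of the gastrokines is shown first, because neighbouring genes of this family differed in listing. Gkn1, Gkn2 and Gkn3 encode small secreted proteins of the gastric mucosa and lie together within 43.3 kb of chromosome 6. Gkn1 and Gkn2 were listed in E13.5 WT and in neither KO list, while Gkn3 was in all 3. The 150 bases before each start are from RefSeq on GRCm38.p6, and capitals mark any match to TATAAA (the TATA box), AGATAA (bound by GATA factors) or GTTAAT (part of the HNF1 site), searched on both strands. The windows are chr6:87350916-87351065 on the minus strand for Gkn1, chr6:87373215-87373364 on the plus strand for Gkn2 and chr6:87388936-87389085 on the minus strand for Gkn3. The starts are those of RefSeq, and for Gkn1 and Gkn2 they lie slightly inside the gene spans of the GENCODE annotation.
Gkn1: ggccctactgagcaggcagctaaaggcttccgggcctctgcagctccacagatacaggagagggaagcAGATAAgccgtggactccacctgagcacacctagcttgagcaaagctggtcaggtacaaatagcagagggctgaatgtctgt
Gkn2: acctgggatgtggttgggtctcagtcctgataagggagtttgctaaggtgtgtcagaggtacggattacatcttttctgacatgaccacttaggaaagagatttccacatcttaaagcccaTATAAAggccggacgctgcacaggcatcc
Gkn3: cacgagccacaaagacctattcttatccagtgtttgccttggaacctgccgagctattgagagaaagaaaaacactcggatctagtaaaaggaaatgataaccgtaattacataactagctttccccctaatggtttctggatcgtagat

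Gkn1 has AGATAA beginning 82 bases before its start, and Gkn2 has TATAAA beginning 29 bases before. The Gkn3 window holds none of the 3 motifs. Their GC content is 56.0%, 48.0% and 41.3%, respectively. The gastrokines that share a listing therefore share none of the 3 motifs in this window. Over the 32851 promoter windows of the same length in the table, 7.57% hold TATAAA, 5.65% AGATAA and 3.71% GTTAAT. These shares count every start given for a gene, whereas 1 start was used for each gene of the set. Promoters were found for 29 of the 38 genes, 13 gastric and 16 intestinal. TATAAA was in 8 of the 29, namely Gkn2, Pgc, Cym, Muc4, Alpi, Sis, Fabp1 and Fabp6. AGATAA was in Gkn1, Lct and Guca2a and GTTAAT in Fabp1, Cdx2 and Guca2b. Of the 7 promoters of genes in 1 or 2 lists, 3 held TATAAA (Gkn2, Alpi and Fabp6), against 4 of 21 for genes in all 3 lists. A match is a string of letters and not a measured binding site.

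Of the 38 genes, 36 were listed in E13.5 WT (94.7%), 27 in its KO counterpart (71.1%) and 30 in the KO at E15.5 (78.9%). Over all annotated protein-coding genes the shares were 77.7%, 77.9% and 75.9%. The E13.5 KO list, the longest of the 3 over all genes, thus held the fewest of these genes. All 38 are protein-coding, and of coding genes it held 17154, against 17108 in E13.5 WT. Gastric genes numbered 19 of 20 in the E13.5 WT list, 13 in the E13.5 KO list and 14 at E15.5. Intestinal genes numbered 17 of 18, 14 and 16. The gastric shares in the KO lists, 65.0% and 70.0%, lie below the share of all coding genes there, and the intestinal shares, 77.8% and 88.9%, lie close to it or above it. The wider list of 96 other gut mucosa genes, described below, did not show this split. Its gastric shares in the KO lists were 88.2% and 94.1%, and its intestinal shares 82.3% and 88.7%. Its 34 gastric genes include 9 transcription factors and 5 endocrine genes, some of them, such as Sst and Ghrl, also pancreatic. The gastric sets are therefore unlike, and the wider list does not check the split.

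**Figure D1:**
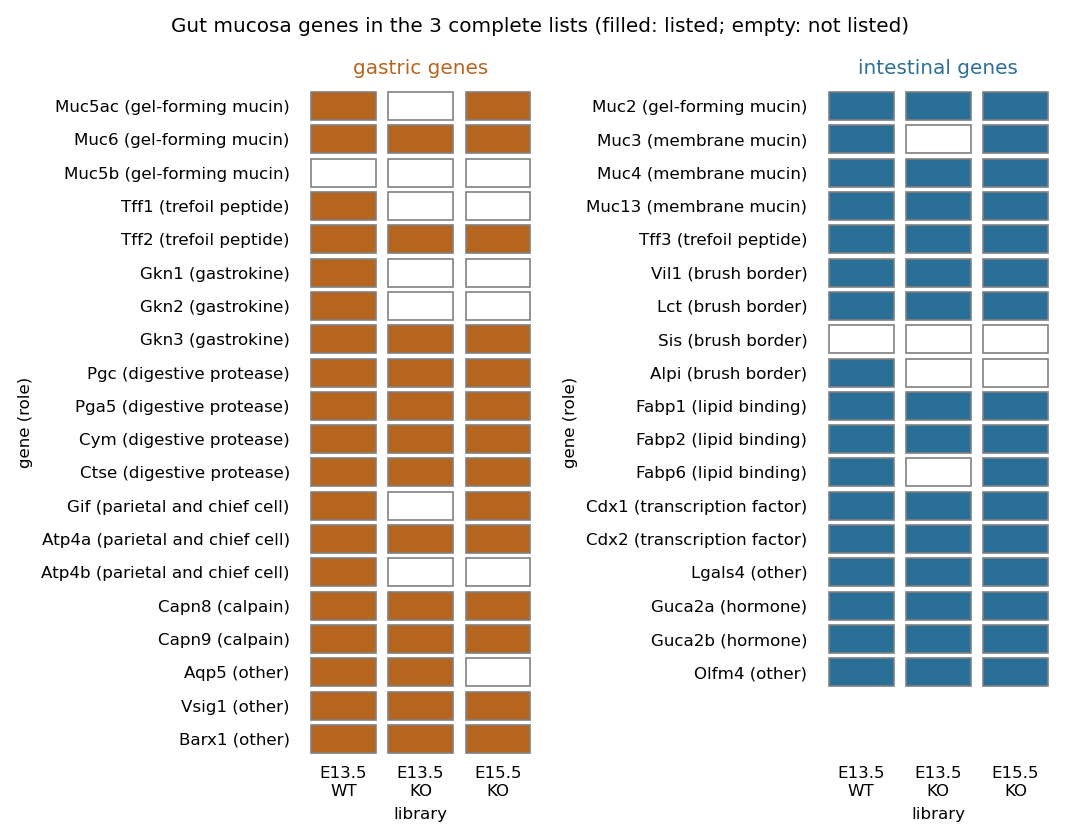
Listing of each of the 20 gastric (left) and 18 intestinal (right) genes in the 3 complete lists, 1 column per library. A filled box is a listed gene and an empty box is a gene that is not listed; the E13.5 WT column has 2 empty boxes, Muc5b and Sis, the E13.5 KO column 11 and the E15.5 KO column 8.

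The genes fell into 5 patterns, and each gene in any list was in that of E13.5 WT. In all 3 lists were 26 genes (72.2% of the 36 in any list, against 89.4% of coding genes in any list). In E13.5 WT alone were 5, Tff1, Gkn1, Gkn2, Atp4b and Alpi (13.9%, against 1.93%). In E13.5 WT and E15.5 KO but not in E13.5 KO were 4, Muc5ac, Gif, Muc3 and Fabp6 (11.1%, against 0.930%). In both E13.5 lists and not in E15.5 KO was 1, Aqp5 (2.78%, against 3.09%). In no list were 2, Muc5b and Sis (5.26% of 38, against 18.5% of annotated coding genes). No gene of the set was in E13.5 KO alone, a pattern of 1.84% of coding genes.

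**Figure D2:**
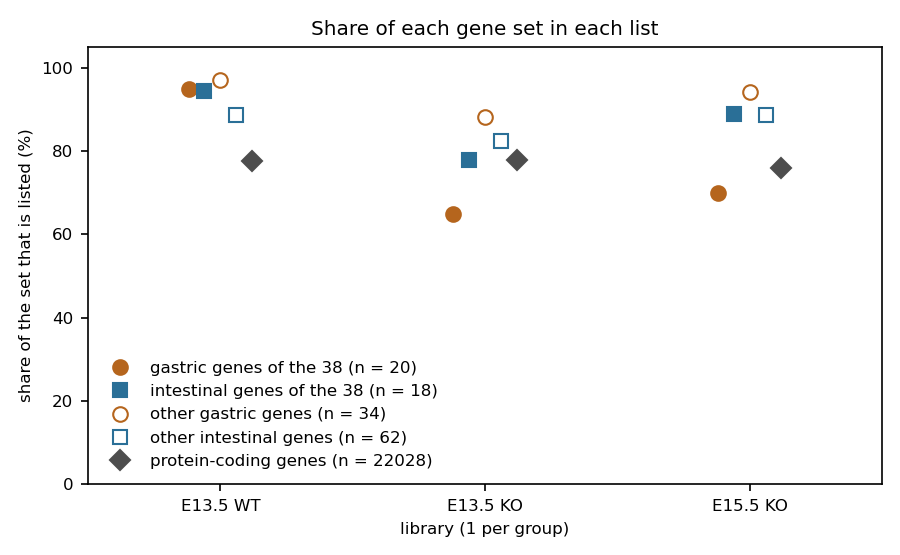
Share of each gene set that is listed (y axis, %) in each of the 3 libraries (x axis), with gastric genes as circles and intestinal genes as squares, the 38 genes filled, the wider list of other gut mucosa genes open, and all annotated protein-coding genes as diamonds. The filled circles go from 95.0% in E13.5 WT to 65.0% and 70.0% in the KO at E13.5 and E15.5, while the diamonds stay between 75.9% and 77.9%. In the same order, the open circles are at 97.1%, 88.2% and 94.1%.

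At E13.5, the comparison of KO with WT asks which gut mucosa genes were listed for the sorted cells of each genotype. Of the 36 genes in either list, 27 were in both, 9 in WT only (25.0%) and 0 in KO only. Over all genes in either list, 6.61% were in WT only and 9.72% in KO only. Over protein-coding genes, the class to which all 38 belong, these shares were 2.91% and 3.17%. The 9 were 6 of 19 gastric genes, Muc5ac, Tff1, Gkn1, Gkn2, Gif and Atp4b, and 3 of 17 intestinal genes, Muc3, Alpi and Fabp6. Without Muc5ac, Tff1, Tff2 and Cym, whose listing was known from earlier results, 7 genes were in WT only. The 0 in KO only cannot change when genes are left out. Genotype and library coincide here and cannot be told apart.

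Within the KO, E15.5 was set against E13.5 to ask how listing differed with age. Of 31 genes in either list, 26 were in both, 4 at the later age only (12.9%) and 1 at the earlier age only (3.23%). Over all genes 7.37% were at the later age only and 10.4% at the earlier age only, and over protein-coding genes 2.55% and 5.03%. The 4 were Muc5ac and Gif of the stomach and Muc3 and Fabp6 of the intestine, and the 1 was Aqp5. Each of the 4 was also in E13.5 WT, so the E13.5 KO list is the 1 complete list that lacks them. The comparison by age and that by genotype share the E13.5 KO library.

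**Figure D3:**
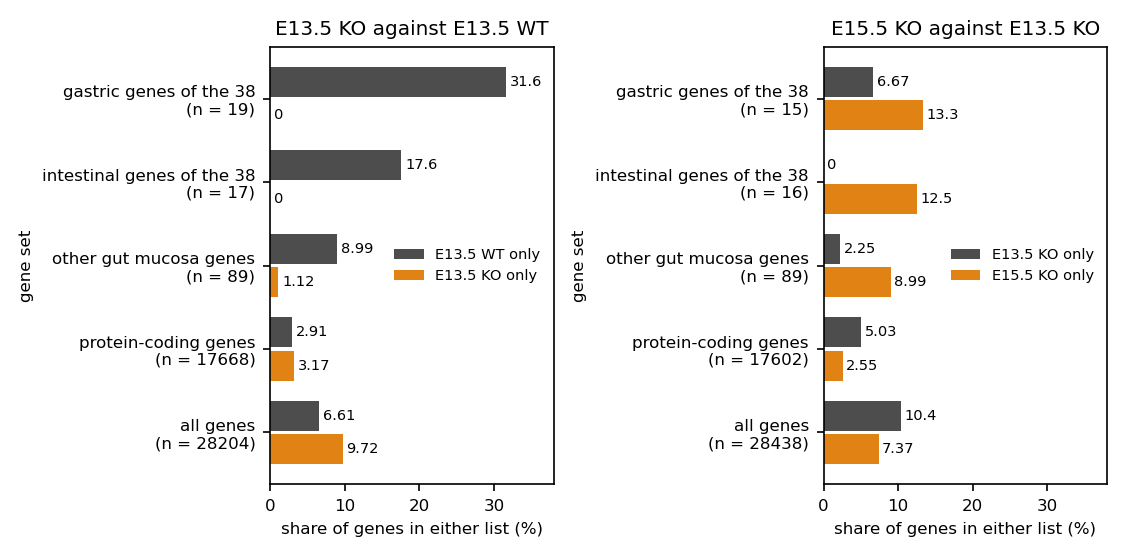
Share of the genes in either list (x axis, %) that are in 1 library only, for E13.5 KO against E13.5 WT (left) and E15.5 KO against E13.5 KO (right), with 1 bar per direction and the number of genes in either list beside each set. At E13.5 the gastric genes have 31.6% in WT only and 0% in KO only, against 2.91% and 3.17% of protein-coding genes.

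The gel-forming mucins are very large secreted glycoproteins that make mucus, and 4 of them lie in a row over 240 kb of chromosome 7. Muc6 (141633456 to 141655319, mm10/GRCm38), the mucin of gastric glands, and Muc2 (141690340 to 141754693), that of intestinal goblet cells, were in all 3 lists. Muc5ac (141788972 to 141819231), the mucin of the gastric surface, was in E13.5 WT and E15.5 KO. Muc5b (141839070 to 141873084), best known as a mucin of airway and salivary glands, was in none. Along the row the number of lists went from 3 for Muc6 and Muc2 to 2 for Muc5ac and 0 for Muc5b. The next coding gene after Muc5b, Tollip, was in all 3 lists.

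Of the membrane mucins, which line the apical surface of enterocytes, Muc13 and Muc4 were in all 3 lists. Muc3 (chromosome 5, 137134922 to 137149322) was in E13.5 WT and E15.5 KO and not in E13.5 KO. The gene annotated next to it as Muc3a was in all 3 lists, and Muc3 and Muc3a had no 50-base stretch of transcript in common.

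The trefoil peptides are small cysteine-rich proteins that are secreted together with mucins, and their 3 genes span 40.0 kb of chromosome 17. Tff3 of goblet cells and Tff2 of gastric neck and gland cells were in all 3 lists. Tff1 (31161395 to 31165277), the trefoil peptide of gastric surface cells, was in E13.5 WT alone. An annotated antisense gene, Gm15318, overlaps Tff1 on the opposite strand and was in all 3 lists. Whether the authors' counting used strand is not given in the sources used here, so the listing of Tff1 is uncertain.

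Among the gastrokines whose promoters are shown above, Gkn1 (87345650 to 87350942) and Gkn2 (87373357 to 87379497) were in E13.5 WT alone. Gkn2 is known to bind Tff1, and both were in that list and in no other complete list. Gkn3 (87383256 to 87388935), a gastrokine of neck cells, was in all 3 lists, and its span lies 3.76 kb from that of Gkn2 on the opposite strand, with the 3' ends facing each other. Antxr1, the coding gene on the far side of Gkn1, was in all 3 as well.

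**Figure D4:**
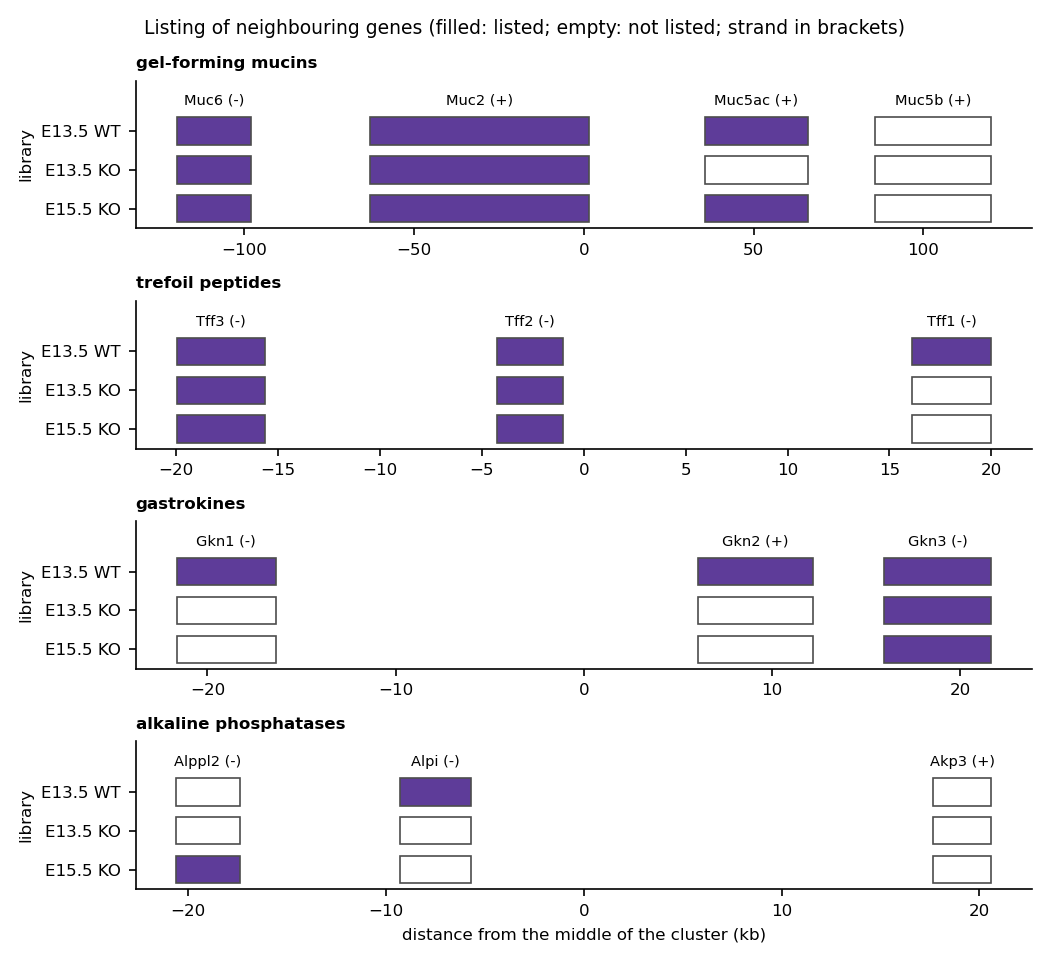
Listing along 4 gene clusters, with 1 row per library and the distance from the middle of the cluster in kb on the x axis (a separate scale for each cluster); boxes are drawn to the annotated span, filled where the gene is listed. In each cluster neighbouring genes differ in listing, such as Gkn2 (E13.5 WT alone) and Gkn3 (all 3 lists), whose spans are 3.76 kb apart.

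The digestive proteases of the stomach did not differ between the lists. Pgc and Pga5, which encode pepsinogens of chief cells, Cym, the milk-clotting enzyme chymosin, and Ctse, the intracellular cathepsin E, were in 3 of 3 lists. So were the stomach calpains Capn8 and Capn9, and 89.4% of the coding genes in any list. The genes of acid secretion were split: Atp4a, the catalytic subunit of the proton pump of parietal cells, was in all 3 lists, and Atp4b (chromosome 8, 13386205 to 13396825), its beta subunit, in E13.5 WT alone. An annotated gene on the opposite strand, Gm45410, overlaps Atp4b and was in no list. Gif (chromosome 19, 11747554 to 11763447), which encodes the intrinsic factor that binds vitamin B12, was in E13.5 WT and E15.5 KO.

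Of the remaining gastric genes, Vsig1, a junctional protein of gastric epithelium, and Barx1, a homeobox factor of the stomach mesenchyme rather than of its epithelium, were in all 3 lists. Aqp5 (chromosome 15, 99590782 to 99594829), a water channel of pyloric and salivary glands, was in both E13.5 lists and not in E15.5 KO. Its neighbours on either side, Aqp2 and Aqp6, were in none of the lists.

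On the intestinal side, the transcription factors of the set, Cdx1 and Cdx2, were in all 3 lists, as were 16040 of 22028 annotated coding genes. Of 9 other intestinal factors in the wider list below, 7 were in all 3. Isx was in E13.5 WT alone and Atoh1 in E15.5 KO alone. As background, Cdx2 lies beside Pdx1 on the chromosome. The peptide hormones guanylin and uroguanylin, Guca2a and Guca2b, were also in all 3, as were Lgals4, a galectin of gut epithelium, and Olfm4, a secreted protein of crypt base cells. Of the transcript of Olfm4, 3.82% of its 50-base stretches also occur in Gm6999.

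The brush border genes differed. Vil1, which encodes the actin bundler villin, and Lct, lactase, were in all 3 lists. Sis (chromosome 3, 72888557 to 72967863), which encodes sucrase-isomaltase, was in none. Alpi (chromosome 1, 87098002 to 87101606), an intestinal alkaline phosphatase, was in E13.5 WT alone. The related gene on one side of it, Alppl2, was in E15.5 KO alone and that on the other, Akp3, in none. Alpi shared 2.40% of its 50-base stretches with other genes, most of them with Akp3. Where the reads fall on these transcripts was not analysed here, so the listing of Alpi is uncertain.

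Of the lipid-binding proteins of enterocytes, Fabp1, also a major protein of liver, and Fabp2 were in all 3 lists. Fabp6 (chromosome 11, 43596049 to 43601540), the bile acid binding protein of the ileum, was in E13.5 WT and E15.5 KO. Whether the listing of Fabp1 comes from liver, whose 7 markers were all listed in each library, was not tested.

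The 10 genes in 1 or 2 lists had a median span of 5.82 kb (range 3.60 to 30.3) and a median longest transcript of 1458 bases. The 26 in all 3 lists had a median span of 11.9 kb (1.77 to 67.3) and a transcript of 1938 bases. Over all coding genes the same order held, with median spans of 10.8 kb for 1909 genes in 1 or 2 lists and 23.6 kb for 16040 in all 3. The 2 genes in no list went the other way: Muc5b and Sis span 34.0 and 79.3 kb and have 49 and 48 exons, whereas coding genes in no list had a median span of 5.86 kb. Of the 17 different coding neighbours of the 12 genes that were not in every list, leaving out the 38 genes themselves, 10 were in all 3 lists, 2 in 1 list and 5 in none. Besides Tollip, Antxr1 and Muc3a, those in all 3 were Tmprss3 beside Tff1, Mrpl16 beside Gif, Tfdp1 beside Atp4b, Trim56 beside Muc3, Slitrk3 beside Sis, and 4933415A04Rik and Pwwp2a beside Fabp6. Grk1 beside Atp4b, like Alppl2, was in E15.5 KO alone, and Oosp3 beside Gif and Otol1 beside Sis were in none, like Aqp2, Aqp6 and Akp3. Over the 22028 annotated coding genes, 16040 were in all 3 lists and 4079 in none. No 50-base stretch was shared with another gene by 36 of the 38 genes.

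In a wider list of 96 other gut mucosa genes, also chosen with earlier results known, E13.5 WT-only genes outnumbered KO-only ones. Of the 89 in either E13.5 list, 80 were in both, 8 in WT only (8.99%) and 1 in KO only (1.12%), against 2.91% and 3.17% of coding genes and 6.61% and 9.72% of all genes. The share in WT only was thus above that of coding genes and near that of all genes. The 8 were Anxa10, Dmbt1 and Slc9a4 of the stomach, and Isx, Clca1, Agr3, Apoa4 and Lypd8 of the intestine. Isx is an intestinal homeobox factor, Clca1 and Agr3 are goblet cell proteins, and Apoa4 is an apolipoprotein of enterocytes. The 1 in KO only was Slc15a1, the peptide transporter of the small intestine, which was in the E15.5 KO list as well.

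Between the KO ages, 8 of the 89 wider genes in either list were at the later age only (8.99%) and 2 at the earlier age only (2.25%). The shares were 2.55% and 5.03% over coding genes, and 7.37% and 10.4% over all genes, so the share at the later age only was above that of coding genes and near that of all genes. Anxa10, Dmbt1 and Agr3 were listed at E15.5 and in E13.5 WT, as were Muc5ac, Gif, Muc3 and Fabp6. The other 5 were in E15.5 KO alone: Lipf, gastric lipase, Atoh1, the factor that specifies secretory cells of the gut, Reg3b, an antimicrobial lectin, Retnlb, a goblet cell protein, and Treh, trehalase. The 2 at the earlier age only were Sox2, a factor of foregut and stomach, and Car1, carbonic anhydrase of colon and red cells.

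By cell type or role, the wider list is given in the order E13.5 WT, then the KO at E13.5 and at E15.5, beside 77.7%, 77.9% and 75.9% of coding genes listed. Of the gastric genes, those of surface, neck and chief cells numbered 11, 9 and 12 of 12, those of parietal cells 8, 7 and 7 of 8, and transcription factors 9, 9 and 8 of 9. Of the intestinal genes, those of enterocytes numbered 27, 26 and 26 of 31, those of goblet cells 5, 3 and 5 of 6, those of stem and Paneth cells 8, 8 and 9 of 9, and transcription factors 8, 7 and 8 of 9. The totals of most roles differed by at most 1 gene between the lists. The exceptions were the goblet cell genes and those of gastric surface, neck and chief cells. Similar totals can hold different genes: of the 31 enterocyte genes, 24 were in all 3 lists. The endocrine genes were complete in every list, with 5 of 5 gastric and 7 of 7 intestinal ones, and several of these, such as Sst and Ghrl, are pancreatic islet genes too. Mep1b and Slc51b of the enterocyte list were in no complete list.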

How the data were processed

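Each deposited file is a list of Ensembl identifiers and symbols without a header, and holds no measured value. Seurat and the build mm10 are named in the submitters' processing notes. For the aligner, the filters on cells and genes, the capture platform and the rule for listing a gene, the answer is not given in the sources used here. What was used of each file is whether a gene is listed or not.

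The 38 genes were matched by symbol, with older and present symbols merged, and all 38 were found in GENCODE M21 (GRCm38, the assembly of mm10) as protein-coding genes. The 38 genes, their split and the wider list of 96 genes were chosen with earlier results of these data known. Every gene of the set is named, and of the wider list every gene that was not in all 3 complete lists and the coding neighbours of the 12 genes of the set that were not in all 3. Counts in 1 list only were taken over the genes in either list, and set beside the same share over all and over protein-coding genes. The counting was tested on simulated lists.

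Transcripts were compared by exact words of 50 bases over all GENCODE M21 transcripts. Shares of motifs used the 150 bases before each RefSeq start. Python 3.11.15 and matplotlib 3.10.9 were used.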

Additional observations from a re-analysis of the deposited data

How the results depend on the processing

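Matching by Ensembl identifier or by exact symbol changed none of the 13 counts of these genes. No gene of the set had different symbols in lists and annotation, so this was fixed in advance. Leaving Muc4 and Muc5b out of both classes, or Barx1 out of the gastric class, moved no class count by more than 1.5 times. The same held for 3 alternatives chosen after seeing the data: without genes that share sequence with another gene (8 in E13.5 WT only), without those that another gene overlaps, Tff1 and Atp4b (7), and without those known from earlier results (7). In each of these, 0 genes were in E13.5 KO only. Leaving genes out can only lower a count, so this 0 was fixed in advance and is no check of the result. Each alternative left out only a few genes, too few to move most counts by 1.5 times. The unmoved counts are therefore no check either. The background did move: with protein-coding genes in place of all genes, the share in E13.5 WT only went from 6.61% to 2.91%, in E13.5 KO only from 9.72% to 3.17%, and between the KO ages from 10.4% to 5.03% at E13.5 only and from 7.37% to 2.55% at E15.5 only. No paired analysis was possible because the groups hold 1 library each, and leaving out a replicate could not be run for the same reason. Depth is unknown, so whether a missing gene was absent or missed was not tested.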

Other observations

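Genes of the same families outside the set, chosen by symbol after the listing was seen, were listed as follows. Of 5 other mucin genes, Muc1, Muc16, Muc20 and Muc3a were in all 3 complete lists and Muc15 in none. The 7 mucins of the set numbered 6 in the WT list of E13.5, 4 in its KO counterpart and 6 at E15.5. Of 6 other fatty acid binding protein genes, 5 were in all 3 lists and Fabp9 in none. Of 11 other calpain genes, 10 were in all 3 lists, and Capn13 was in E13.5 WT alone. For comparison, of 22028 annotated coding genes, 16040 were in all 3 lists, 347 in E13.5 WT alone and 4079 in none.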
